A study of Mus musculus with 4 samples.

Results

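Distal regulatory sites that were open in every library were described across immortalised mouse subcutaneous preadipocytes before and after conversion to beige adipocytes. The members were chosen by their peaks: the 4 peak lists were merged on chromosomes 1 to 19 wherever peaks shared at least 1 bp, and a merged region was kept when it held a peak of each library and did not touch the window from 1000 bp before to 100 bp after any annotated transcription start site (TSS). This left 12694 sites of 98469 merged regions, or 12.9%. They are called distal sites below, without a claim that they act as enhancers. Of the 81295 merged regions outside promoter windows, 15.6% had a peak in all 4 libraries, and 37.1% had a peak in 1 library alone.

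Open chromatin was measured by ATAC-seq, in which the Tn5 transposase cuts and tags accessible DNA. The cells are called im-scWAT and came from the stromal vascular fraction of subcutaneous fat, from mice that were Jmjd1a +/+ (WT) or Jmjd1a HY/HY (HY). Jmjd1a encodes a demethylase of histone H3 lysine 9, and in the HY allele a histidine of its catalytic domain is a tyrosine, which makes the enzyme inactive in every cell of that line. Nuclei were taken before differentiation (D0) and after it (D8), so the groups were WT D0, WT D8, HY D0 and HY D8, with 1 library each. The D8 cells had been induced with indomethacin, dexamethasone, IBMX, rosiglitazone, insulin and T3 and then kept in insulin, T3 and rosiglitazone, so drug and differentiation cannot be told apart. Each genotype is represented by 1 line, so line and genotype cannot be told apart either. No test between conditions was made with 1 library per group, and intervals on folds cover counting error only.

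Distal open chromatin includes enhancers, which bind transcription factors and raise transcription from a distance, and boundary elements, where CTCF with cohesin holds the bases of chromatin loops. AP-1, a dimer of FOS and JUN proteins, and TEAD factors, the DNA-binding partners of YAP and TAZ, are typical of fibroblast and preadipocyte enhancers. C/EBP and EBF factors and PPARG with its partner RXR bind enhancers of adipocyte genes during fat cell differentiation.

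Matches of 15 motifs were searched on both strands of mm9 (NCBIM37), and 5 instances of the CTCF core are printed to show the core itself. They belong to the sites with the highest lowest-of-4 pileup among those with a CTCF match within 50 bp of the summit, which are the smaller share of CTCF sites, since at 81.7% of the 744 sites with a match the strongest summit lay 50 to 90 bp from it. The plus strand is given 5′ to 3′, with the 12-base core in capitals.

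Eef1b2 site, chr1:63227713-63227773: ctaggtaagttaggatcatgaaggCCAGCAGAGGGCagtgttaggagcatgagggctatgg

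Creld2 site, chr15:88659308-88659368: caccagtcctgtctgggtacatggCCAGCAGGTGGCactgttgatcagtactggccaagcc

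Tnfrsf14 site, chr4:154318581-154318641: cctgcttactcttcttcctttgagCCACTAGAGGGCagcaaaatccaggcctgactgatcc

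Bcl6 site, chr16:23984425-23984485: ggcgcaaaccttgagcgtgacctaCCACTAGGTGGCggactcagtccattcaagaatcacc

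Eif3b site, chr5:140915226-140915286: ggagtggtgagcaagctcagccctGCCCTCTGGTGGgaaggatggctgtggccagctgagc

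The last of these holds the core on the minus strand. The site nearest Bcl6, a transcriptional repressor gene, lies in an intron of that gene, and the site nearest Eif3b, a translation initiation factor gene, lies in an intron of Eif3b. The other 3 are intergenic, 3.99 kb after the TSS of Eef1b2, 9.21 kb after that of Creld2 and 15.9 kb before that of Tnfrsf14. The summit pileup, the number of sequenced tags over the summit, is given in the order WT D0, WT D8, HY D0, HY D8 throughout and was 37, 26, 48 and 30 at the Eef1b2 site. It was 30, 25, 32 and 28 at the Creld2 site, with a D8 to D0 ratio after scaling for depth of 1.03 in WT (95% interval 0.583 to 1.82). It was 29, 25, 41 and 27 at the Tnfrsf14 site and 35, 23, 36 and 28 at the Bcl6 site. The Eif3b site, with 37, 22, 39 and 26, had the ratio farthest from 1 in WT, 0.738 (0.415 to 1.28). At all 5 sites the interval of the D8 to D0 ratio included 1 in both genotypes, though at these pileups the intervals are wide.

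For 4 further motifs, the site with the highest lowest-of-4 pileup is printed with its match in capitals. The AP-1 motif searched was TGANTCA with C or G in the middle.

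Zfp869 site, chr8:72240883-72240943: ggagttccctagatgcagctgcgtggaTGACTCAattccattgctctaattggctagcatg

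The C/EBP motif was TTNCGNAA with A or G as the third base and C or T as the sixth.

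Arid2 site, chr15:96115984-96116044: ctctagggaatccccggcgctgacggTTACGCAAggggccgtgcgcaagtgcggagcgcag

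The EBF motif was TCCC and GGGA with 2 bases between.

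Zfp395 site, chr14:65962610-65962670: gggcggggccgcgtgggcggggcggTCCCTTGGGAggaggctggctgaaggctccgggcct

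The TEAD motif was CATTCCN with A or T at the end.

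Axin2 site, chr11:108873112-108873172: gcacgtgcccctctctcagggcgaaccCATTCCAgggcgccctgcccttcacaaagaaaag

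The Axin2 site, 68.2 kb after the TSS of this WNT target gene, had a pileup of 98, 123, 112 and 133. The Zfp869 site with the AP-1 match had 78, 62, 86 and 65, and the Arid2 site with the C/EBP match had 52, 43, 75 and 53. The Zfp395 site with the EBF match had 65, 46, 73 and 64. These sites were picked for their height in every library.

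The libraries differed in depth, and each value was scaled for it. The lists held 71523 (WT D0), 41228 (WT D8), 77994 (HY D0) and 48964 (HY D8) peaks, and the lowest background rate of a peak in each was 0.659, 0.531, 0.708 and 0.494 tags. Pileups were divided by that rate. Promoter windows of 20 fixed adipocyte lipid and secreted genes held a peak for 10, 17, 10 and 18 genes in WT D0, WT D8, HY D0 and HY D8. Those of 20 fibroblast and preadipocyte genes held one for 19, 12, 17 and 14, those of 20 hepatocyte genes for none in any library, those of 18 annotated neuron genes for 7, 3, 10 and 4, and those of 17 annotated blood genes for 2, 0, 2 and 0. Over all protein-coding genes the counts were 12318, 11226, 12575 and 11491. Adipocyte promoters thus had more peaks at D8 than at D0 in both genotypes, where the fibroblast, neuron and blood lists and all coding genes together had fewer. Thermogenic genes had 11, 13, 13 and 13, more at D8 in WT and the same in HY, and adipogenic factor genes 19, 17, 19 and 19.

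The median width of the distal sites was 540 bp (quartiles 373 and 740), and together they covered 7.36 Mb. Promoters open in all 4 libraries were wider, with a median of 827 bp, and distal regions open in both D0 or both D8 libraries only were narrower, with 299 and 270 bp. Because the rule required overlapping peaks, some closeness of the summits is fixed by the choice of sites. The 4 summits of a site lay within 83 bp of each other at the median, and within 200 bp at 83.7% of sites. Summits of the 2 genotypes on the same day were the closest, with a median distance of 21 bp at D0 and 34 bp at D8, against 37 bp between the days in WT and 36 bp in HY. A single peak of each library made up 83.0% of sites.

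By place, 48.1% of the sites were intergenic, 47.3% intronic (95% interval 46.4 to 48.2), 1.71% in a coding exon and 2.85% in another exon. The median distance to the nearest TSS of a protein-coding gene was 18664.5 bp, and 24.0% of sites lay more than 50 kb away. The sequence within 100 bp of the summit was 52.2% G and C at the median, between promoters open in all 4 libraries (64.7%) and distal regions open in both D0 libraries only (48.3%). At least 8 CpG dinucleotides were found at 15.3% of the distal sites and at 85.7% of those promoters.

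Both edges of the rule were examined, with no test because the rule used these values. The weakest peak of a site had a median −log10 q of 6.41, and at 149 sites, or 1.17%, it was under 2. The site with the lowest value, 1.31, was nearest March6, where the pileup was 15, 8, 22 and 7 in the order above. Just outside lay 8874 distal regions with a peak in 3 libraries. WT D8, the library with the shortest list, was the missing one at 66.5% of these. HY D8, with a lower background rate than WT D8, was missing at 17.6%. The part of depth was not tested. At the promoter edge, 126 members lay under 100 bp from a promoter window and had a median lowest scaled pileup of 22.4, against 24.5 for the 131 regions that overlapped a window by 100 bp or less.

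Peak heights at the distal sites were higher at D0 than at D8. For WT the median pileup was 23 at D0 (range 5 to 150) and 13 at D8 (5 to 161), and for HY it was 26 (5 to 143) and 14 (4 to 163). In multiples of the background rate the medians were 34.9, 24.5, 36.7 and 28.3. The boxes of the D0 and D8 libraries overlapped over most of their range. The local background around the summit moved the same way, with medians of 2.40, 1.81, 2.44 and 1.91 times the library rate, and its part in the heights was not tested.

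**Figure D1:**
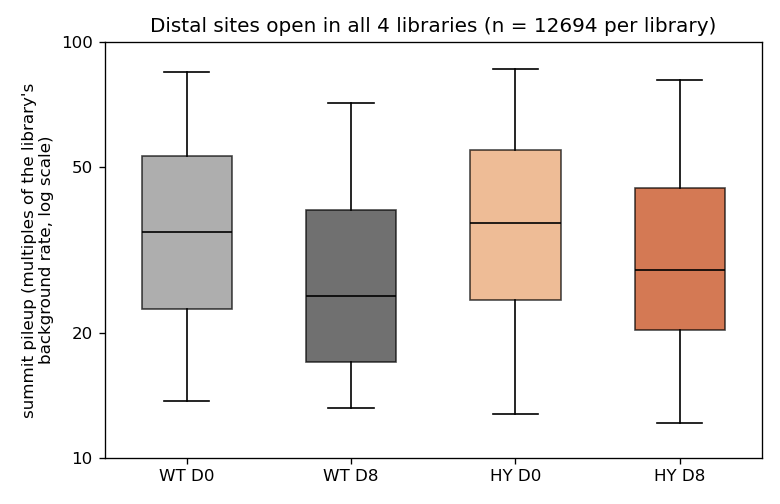
Scaled summit pileup of the 12694 distal sites in each library (y axis, multiples of the library's background rate, log scale). Boxes show the median and quartiles and whiskers the 5th and 95th percentiles. Both D8 medians, 24.5 and 28.3, lie under both D0 medians, 34.9 and 36.7.

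The 5 tallest sites were ranked by their lowest scaled pileup. The tallest lay between genes on chromosome 12, with pileups of 150, 161, 143 and 163, and after scaling was 1.33-fold higher at D8 in WT (1.06 to 1.68) and 1.63-fold higher in HY (1.3 to 2.06). Next came the site 23.7 kb before Gm5614, with 134, 160, 137 and 160, and the site 12 kb after the Sfi1 TSS, with 123, 102, 132 and 114. The Gm5614 site was 1.48-fold (1.17 to 1.88) and 1.67-fold (1.32 to 2.12) higher at D8 in WT and HY, and the interval excluded 1 in both genotypes at 4 of the 5 sites. The exception was the Sfi1 site, with ratios of 1.03 (0.784 to 1.35) and 1.24 (0.954 to 1.60). The deposited fold over the local background, which is not scaled for depth, gave other ratios in WT and HY. They were 0.944 and 1.00 at the tallest site, 1.06 and 1.15 at the Gm5614 site and 0.869 and 1.02 at the Sfi1 site. The site nearest 1700012B15Rik had 1.38 and 1.26, and that nearest Pxmp3 had 1.02 and 0.993. All 5 were intergenic, and 4 of them held none of the 15 motifs. The 50-base words at the summit recurred exactly up to 35 times on chromosomes 1 to 19 at the Gm5614 site and 14 to 21 times at the site nearest 1700012B15Rik. At the site nearest Pxmp3 they occurred 1 time only. The part of repeated sequence in these heights was not tested.

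Most distal sites moved in the same direction with differentiation in both genotypes. The median log2 ratio of D8 to D0 was −0.36 in WT and −0.27 in HY, where promoters open in all 4 libraries had −0.05 and 0.02. Across the sites the WT and HY changes, which share no library, had a Pearson correlation of 0.80 and a Spearman correlation of 0.79 (n = 12694 sites, a description, since sites share their library's depth). The sign was the same in both genotypes at 81.7% of sites.

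**Figure D2:**
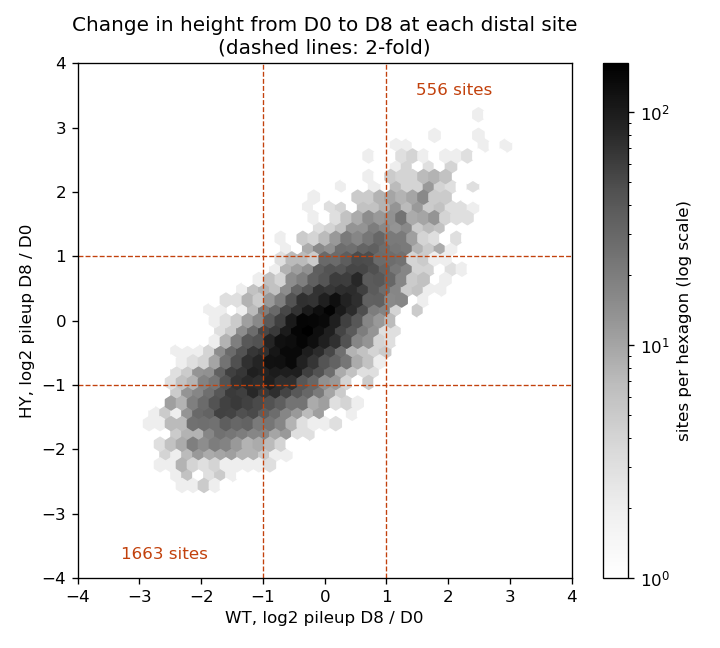
Log2 ratio of the scaled pileup at D8 to that at D0 at each distal site in WT (x axis) and HY (y axis). The shade of a hexagon is the number of sites on a log scale and dashed lines mark 2-fold. The cloud follows the diagonal, with 556 sites beyond 2-fold upwards in both genotypes and 1663 downwards.

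In WT, 823 sites (6.48%) were at least 2-fold higher at D8 and 2918 (23.0%) at least 2-fold lower. Among all merged regions with a peak in both WT libraries the shares were 4.84% and 14.8%. In HY, 1100 sites (8.67%) were higher and 2401 (18.9%) lower, against 5.30% and 17.2% of all regions with a peak in both HY libraries. Higher in both genotypes were 556 sites (4.38%), and lower in both were 1663 (13.1%). These were 67.6% of the higher and 57.0% of the lower sites of WT, and 50.5% and 69.3% of those of HY. Of all regions with a peak in all 4 libraries, 2.70% were higher and 8.25% lower in both genotypes. A further 1161 sites (9.15%) stayed within 1.2-fold in both genotypes and are called steady, against 20% of all regions with 4 peaks. Because the rule used the same peaks, these shares are a description and nothing is read from their distance to the background.

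The split between the directions depended on the scale. Of the sites that passed 2-fold in both genotypes, 25.1% were higher at D8 by scaled pileup, and 14.9% (84 higher and 478 lower) by the deposited fold over the local background. Centring on promoters gave 25.8%. The deposited fold has a pseudocount of 1 and was not scaled for depth, so it falls in a shallower library, and both D8 libraries were shallower. The part of depth in this split and in the other ratios over the local background was not tested.

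The 10 largest rises with a pileup of at least 20 at D8 in both genotypes were led by an intronic site 5.01 kb before the TSS of Agpat2, which encodes an acyltransferase of triglyceride synthesis. Its WT pileup was 8 at D0 and 68 at D8, and its HY pileup 11 and 65. That was 10.6-fold higher at D8 in WT (95% interval 5.06 to 25.4) and 8.46-fold higher in HY (4.43 to 17.8). The local background of this site moved too, from 1.14 to 10.8 tags in WT and from 1.35 to 8.74 in HY. By the deposited fold over the local background the rise was 1.40-fold in WT and 1.33-fold in HY.

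A site 46.1 kb before Phf17 had 10, 65, 9 and 65 and was 8.07-fold (4.12 to 17.6) and 10.3-fold (5.13 to 23.6) higher. A site in an intron of Nrf1, the gene of nuclear respiratory factor 1, a regulator of mitochondrial genes, had 6, 49, 9 and 49. Sites near Pnpla5, a lipase family gene, and Prkar2b, a regulatory subunit of protein kinase A, had 7, 65, 12 and 61, and 7, 52, 11 and 54. By fold over the local background the 10 sites rose by 1.31-fold to 3.88-fold, where scaled pileup gave 6.34-fold to 11.5-fold, and 7 of them passed 2-fold in both genotypes. In all 10 sites, picked for this change, both D8 values, 31 to 68, were above both D0 values, 6 to 12.

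The sequences of the first 4 of the 10 that held a match of a motif within 90 bp of the summit are printed to show what the risen sites contain, the plus strand of mm9 with the summit at the middle base. Capitals mark TEAD at Phf17 and Lin9, AP-1 at Prkar2b, and matches of the looser C/EBP letters TTNCNNAA (A or G as the third base and no limit on the sixth) at Phf17 and Aspg.

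Phf17 site, chr3:41313468-41313668: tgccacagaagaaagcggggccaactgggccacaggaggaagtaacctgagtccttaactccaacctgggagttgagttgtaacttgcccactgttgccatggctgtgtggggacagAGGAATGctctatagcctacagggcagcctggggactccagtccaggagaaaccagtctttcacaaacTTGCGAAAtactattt

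Prkar2b site, chr12:32794187-32794387: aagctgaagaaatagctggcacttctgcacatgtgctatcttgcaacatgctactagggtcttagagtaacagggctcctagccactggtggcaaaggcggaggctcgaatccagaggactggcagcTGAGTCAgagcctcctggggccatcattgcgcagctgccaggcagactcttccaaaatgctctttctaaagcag

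Aspg site, chr12:113334580-113334780: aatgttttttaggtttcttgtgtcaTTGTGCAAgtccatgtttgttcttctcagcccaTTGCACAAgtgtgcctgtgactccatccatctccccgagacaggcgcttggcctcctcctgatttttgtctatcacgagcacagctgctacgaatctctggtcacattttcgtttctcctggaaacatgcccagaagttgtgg

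Lin9 site, chr1:182556255-182556455: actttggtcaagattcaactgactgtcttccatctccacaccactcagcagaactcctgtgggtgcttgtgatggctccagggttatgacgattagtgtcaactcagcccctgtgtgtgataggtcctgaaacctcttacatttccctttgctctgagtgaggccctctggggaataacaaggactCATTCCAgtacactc

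The Aspg window held 2 of these C/EBP matches. Its WT pileup was 7 at D0 and 46 at D8, and its HY pileup 7 and 34. The Lin9 site had 7, 41, 10 and 47. Agpat2, Nrf1 and Pnpla5 held none of the 15 motifs within 100 bp of the summit.

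The 10 largest falls were led by an intronic site of Slc37a1, a sugar phosphate transporter gene, which had WT pileups of 53 at D0 and 6 at D8 and HY pileups of 70 and 6. It was 7.12-fold lower at D8 in WT and 8.15-fold lower in HY, while its local background went from 2.67 to 0.531 tags in WT and from 3.81 to 0.494 in HY. By fold over the local background it was 3.22-fold and 3.15-fold lower. A site 38.3 kb after the TSS of Crabp1, a retinoic acid-binding protein gene, had 69, 7, 78 and 10. A site before Tgfbi, a matrix protein gene induced by TGF-β, had 62, 10, 78 and 11. Over the local background the 10 falls were 1.53-fold to 3.93-fold, against 4.89-fold to 8.15-fold by scaled pileup, and 9 of them passed 2-fold in both genotypes. At all 10 sites, picked likewise, both D0 values, 35 to 78, were above both D8 values, 5 to 11. AP-1 was matched at 4 of these 10 sites and at 1 of the 10 risen sites.

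The first 3 fallen sites with a match are printed in the same way. Capitals mark TEAD at Crabp1, AP-1 at BC046404, and AP-1, TEAD and an SRF match, the CArG box of serum response factor, at Inhba.

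Crabp1 site, chr9:54650770-54650970: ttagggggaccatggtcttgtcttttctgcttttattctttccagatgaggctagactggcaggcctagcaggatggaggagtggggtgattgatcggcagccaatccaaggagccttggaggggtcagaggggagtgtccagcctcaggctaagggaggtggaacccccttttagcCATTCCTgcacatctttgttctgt

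BC046404 site, chr11:62438250-62438450: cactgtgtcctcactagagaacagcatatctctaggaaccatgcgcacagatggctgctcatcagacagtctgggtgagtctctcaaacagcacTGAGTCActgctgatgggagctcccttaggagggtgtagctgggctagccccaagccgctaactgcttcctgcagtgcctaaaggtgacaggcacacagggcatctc

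Inhba site, chr13:16853400-16853600: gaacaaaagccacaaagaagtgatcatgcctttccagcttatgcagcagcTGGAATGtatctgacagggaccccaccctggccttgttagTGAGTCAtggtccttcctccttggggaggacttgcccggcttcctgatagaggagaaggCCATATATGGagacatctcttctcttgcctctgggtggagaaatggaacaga

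The Inhba site, 747 kb from the TSS of this activin subunit gene, had 38, 6, 49 and 6. The BC046404 site had 38, 6, 52 and 7.

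**Figure D3:**
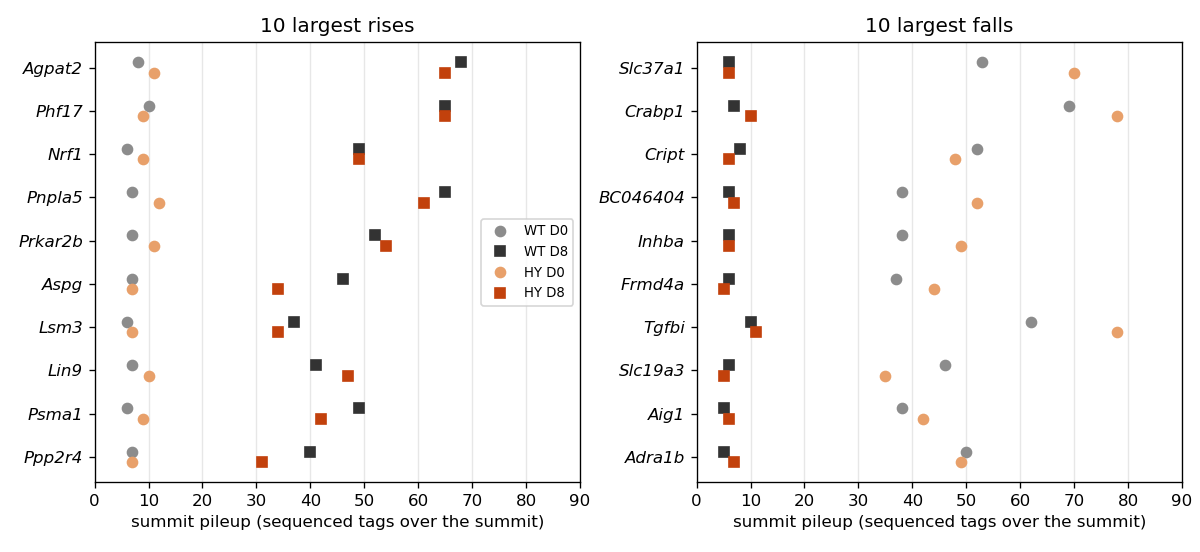
Summit pileup (x axis, sequenced tags) at the 10 sites with the largest rise and the 10 with the largest fall from D0 (circles) to D8 (squares), in WT (grey and black) and HY (orange), named by the nearest protein-coding TSS. The sites were picked for a change in both genotypes, so the gap between D0 and D8 at each of the 20 sites and the likeness of the genotypes follow from that choice.

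Motifs set the distal sites apart from promoters and from regions open on 1 day only. A match had to have its centre within 100 bp of the summit of the strongest peak, and intervals of differences are Newcombe 95% intervals over sites. Neighbouring sites were counted as independent, and base composition differed between the sets as given above; its part was not tested. AP-1 was matched at 21.8% of sites (95% interval 21.1 to 22.6), against 3.84% of promoters open in all 4 libraries, a difference of 18 points (17.2 to 18.8). Distal regions open in both D0 libraries only held it at 27.4%, and the distal sites were lower by 5.60 points (interval −6.52 to −4.67). Distal regions open in both D8 libraries only held it at 5.52%, and the distal sites were higher by 16.3 points (15.4 to 17.2). Over all 98469 merged regions the share was 18.3%. The distal sites thus lay between the 2 kinds of day-specific region, nearer to the D0 kind.

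CTCF was matched at 5.86% of distal sites (5.46 to 6.28), 1.41% of the promoters, 4.58% of D0-only and 0.20% of D8-only regions, and 3.77% of all merged regions. The excess over D0-only regions was 1.28 points (0.796 to 1.78) and over D8-only regions 5.66 points (5.24 to 6.09). When regions of similar height were compared, 30 to 60 times background in their tallest library, CTCF was matched at 6.34% of the distal sites (5.76 to 6.97), 1.69% of D0-only (1.34 to 2.1) and 0.144% of D8-only regions (0.0296 to 0.419). Within these limits of height the contrast with D0-only regions was therefore wider. D0-only means that no peak was called in the shallower D8 libraries, and the part of depth in that set was not tested. The commonest spelling of the core stood at 11.8% of the 744 sites.

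TEAD was matched at 13.3% of distal sites, with 18.3% of D0-only, 8.31% of D8-only and 13.2% of all merged regions. RUNX (TGTGGTT) was matched at 6.14%, 10.1%, 4.08% and 6.92% of the same sets. For both motifs D0-only regions had the highest and D8-only regions the lowest of these 4 shares. The looser C/EBP letters went the other way, with 20.6% of distal sites, 15.9% of D0-only and 39.4% of D8-only regions. EBF was at 1.94%, 1.19% and 2.69%. Motifs of promoter factors were rare at the distal sites, with SP/KLF (GGGGCGGGG) at 2.37% against 18.4% of promoters and NFY at 4.11% against 14.6%. None of the 15 motifs was found at 49.1% of the distal sites. TEAD was about as frequent in sites with AP-1 (13.7%, interval 12.5 to 15.1) as in sites without it (13.1%, 12.5 to 13.8). CTCF and AP-1 met at only 43 sites.

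Position within the sites differed between factors. AP-1 matches were densest at the summit, with 34.3 matches per 1000 sites in each 20-bp bin at the centre and 3.99 beyond 400 bp, an 8.61-fold difference. TEAD matches were 2.26-fold denser at the centre, with 16.6 against 7.35. CTCF matches stood beside the summit, in a pair of narrow bands, with 17.2 and 18 per 1000 sites in the bins centred 70 bp before and after it and 0.788 and 0.236 in the bins centred at 30 bp. The bins at the summit held fewer CTCF matches than the bands, 2.95 per 1000 sites, but this was 11.4-fold more than the 0.260 beyond 400 bp. Bands beside the summit were not particular to CTCF. EBF matches had 3.86 and 3.70 per 1000 sites in the bins centred 70 bp before and after it, and 0.788 and 1.18 at 30 bp. The looser C/EBP letters, TTNCNNAA, had 25.7 and 27.2 at 70 bp and 19.6 and 19.9 at 30 bp.

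**Figure D4:**
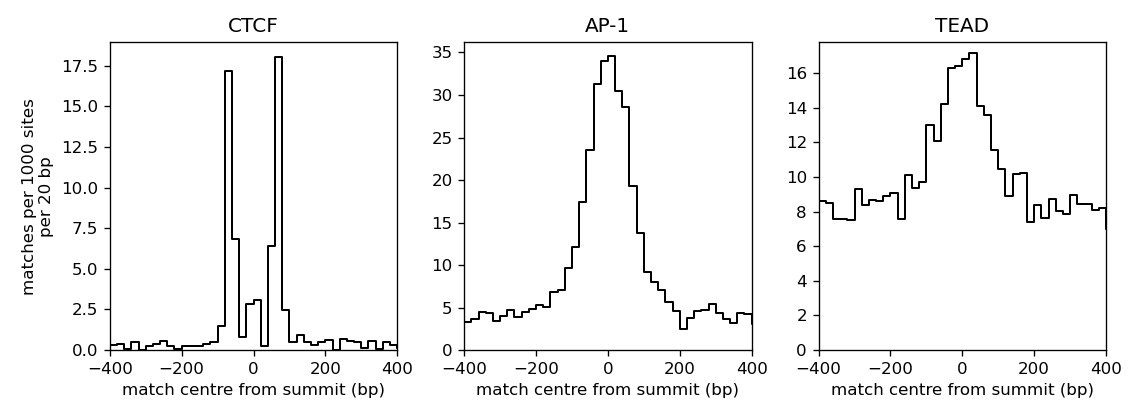
Matches of the CTCF core, AP-1 and TEAD motifs per 1000 distal sites in 20-bp bins (y axis) against the distance of the match centre from the summit of the strongest peak (x axis, bp). CTCF forms bands at about 70 bp on both sides, AP-1 a single peak at the summit and TEAD a lower, broader one.

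Of the 744 sites with a CTCF match, 568 (76.3%, interval 73.1 to 79.4) had their WT D0 summit 50 to 90 bp from the centre of the match, and 576 (77.4%, 74.2 to 80.4) their HY D0 summit. The D8 libraries had 56.7% (53.1 to 60.3) in WT and 58.2% (54.6 to 61.8) in HY. Summits within 30 bp of the match were correspondingly rarer at D0, 14.5% in WT and 11.4% in HY, than at D8, 27.2% and 25.3%. The D8 libraries were shallower, and the part of depth in this shift was not tested. Read along the strand of the core, the strongest summit lay over 30 bp after the match at 59.7% of sites (56.1 to 63.2) and over 30 bp before it at 29.0% (25.8 to 32.4). AP-1 showed no such spacing, with 26.7% of WT D0 summits 50 to 90 bp away and 41.2% within 30 bp.

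Motif content followed the change in height. AP-1 was matched at 36.9% of the 1663 sites lower at D8 in both genotypes (34.5 to 39.2), 16.6% of steady sites (14.5 to 18.9) and 10.8% of the 556 higher sites (8.34 to 13.7). The higher sites held it less often than the lower ones by 26.1 points (written as higher minus lower, −26.1, interval −29.4 to −22.4). Among sites 30 to 60 times background the difference, lower minus higher, was 23.6 points (18.3 to 28.2). Sites without an AP-1 match had a median log2 change of −0.27 in WT and −0.18 in HY, sites with 1 match −0.61 and −0.54, and the 318 sites with at least 2 matches −0.88 and −0.77. Of the last, 28.3% were lower and 0.314% higher in both genotypes.

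TEAD and RUNX were also most frequent in the lower sites, TEAD with 20% against 9.30% of steady and 11% of higher sites, and RUNX with 9.98% against 4.91% and 4.14%. For both, the interval of the difference between higher and steady sites included 0 (TEAD 1.67 points, −1.28 to 4.93, RUNX −0.77 points, −2.73 to 1.5). SRF was matched at 3.07% of lower and 1.44% of higher sites, a difference of −1.63 points (−2.81 to −0.0732).

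EBF was matched more often at the higher sites, 4.50% of them (2.93 to 6.57) against 0.962% of lower sites (0.551 to 1.56), a difference of 3.53 points (1.98 to 5.62). The strict C/EBP motif was too rare to separate them, with 5 higher and 6 lower sites and a difference of 0.54 points (−0.128 to 1.74). With the looser C/EBP letters the shares were 31.5% of higher, 15.5% of lower and 20.1% of steady sites, a difference between higher and lower of 16.0 points (11.9 to 20.3). The PPARG:RXR motif, a direct repeat with 1 base between, was found at 14 distal sites, of which 3 were higher and none lower in both genotypes, a difference of 0.54 points (0.116 to 1.57) that rests on those 3 sites. The glucocorticoid receptor motif was matched at 66 sites, 4 higher and 6 lower.

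Sites with a CTCF match changed with the smallest spread of the 15 motifs in both genotypes. They made up 6.72% of steady sites (5.35 to 8.31), 2.89% of lower sites and 0.899% of higher sites, and steady exceeded higher by 5.82 points (4.06 to 7.49). The interval for steady sites included the share over all distal sites, 5.86%. Of the CTCF sites 10.5% were steady, against 9.15% of all distal sites and larger shares of sites with SP/KLF (20.3%), NRF1 (19.2%), C/EBP (15.9%), CREB (15.2%) and NFY (13.2%). The standard deviation of the log2 change was 0.57 in WT and 0.60 in HY, against 0.62 and 0.60 for the 52 NRF1 sites, the next smallest, and 0.88 and 0.82 for AP-1 sites. Their medians were nevertheless below 0, with −0.39 and −0.48. Steady sites were also nearer to genes, with a median of 13450 bp from a coding TSS against 22412.5 bp for higher and 26554 bp for lower sites, and were slightly richer in G and C, with 54.2% against 52.2% and 51.2%.

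**Figure D5:**
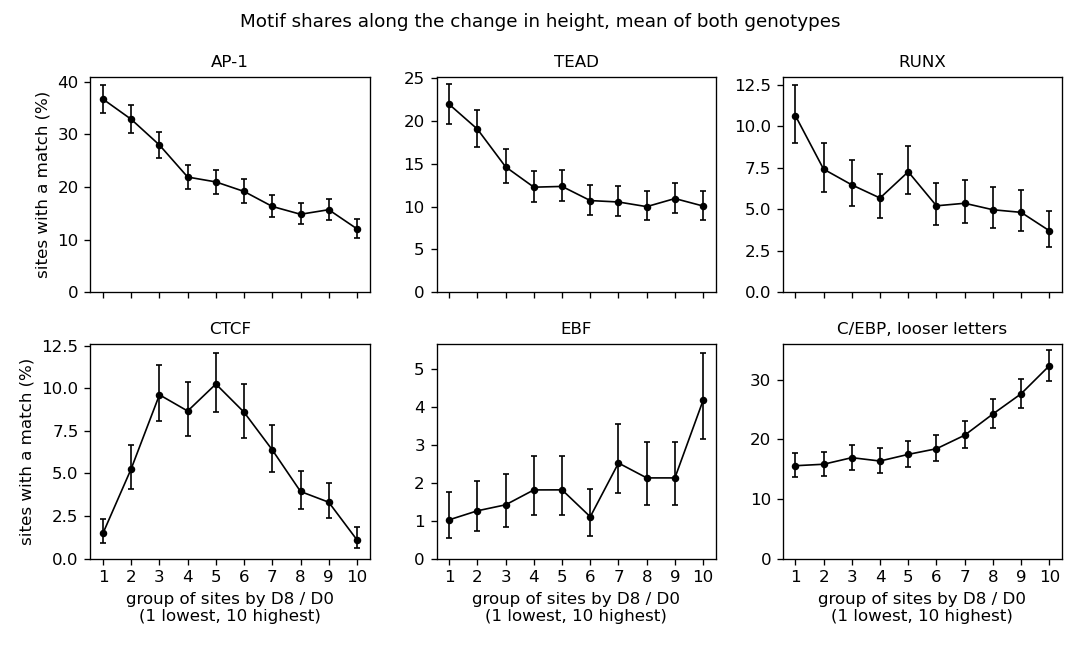
Share of distal sites with a match (y axis, %, each panel its own scale) in 10 equal groups of the sites ordered by the mean log2 D8 to D0 change of both genotypes (x axis, 1 lowest and 10 highest), with 95% binomial intervals. AP-1 declines from 36.7% to 12% and TEAD from 22.0% to 10.1%, CTCF is highest in the middle at 10.2%, and EBF and the looser C/EBP letters are highest in the last group at 4.17% and 32.4%.

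Genes of the fixed lists were compared by the distal sites within 50 kb of their TSSs, beside all protein-coding genes, 49.4% of which had one. Sites near all coding genes were higher at D8 in both genotypes in 4.18% of cases and lower in 11.5%, with median log2 changes of −0.34 in WT and −0.26 in HY. Of 20 adipocyte lipid and secreted genes, 14 had a site. Of their 33 sites 4 were higher and none lower, and the medians were 0.31 and 0.40. Of 20 fibroblast and preadipocyte genes 15 had a site. Of their 38 sites none was higher and 5 (13.2%) were lower, with medians of −0.63 and −0.56. This is near the share of lower sites over all coding genes, and the 17 sites of the neuron list had medians of −0.52 and −0.55. No list was tested against the others. By fold over the local background no site of either list was higher, and 1 adipocyte site and no fibroblast site was lower. The adipocyte medians were then below 0, −0.17 and −0.24, beside −0.23 and −0.20 for the fibroblast list and −0.25 and −0.24 for all coding genes. This fold falls with depth, as given above, so medians below 0 on it are not read as falls. On that scale no site of any of the 8 lists passed 2-fold upwards in both genotypes, against 0.653% of sites near all coding genes, so the higher calls near list genes given here hold for scaled pileup only. Lower by it were 1 adipogenic factor, 0 thermogenic, 1 AP-1, TEAD and CTCF factor, 1 hepatocyte, 1 neuron and 2 blood sites. Near all coding genes 3.31% of sites were.

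Among the adipocyte genes, the site 28.8 kb before Lep, the leptin gene, had WT pileups of 10 at D0 and 29 at D8 and HY pileups of 8 and 26, and was 3.60-fold higher at D8 in WT and 4.65-fold higher in HY. A site 49.1 kb before Fasn, the fatty acid synthase gene, had 10, 23, 11 and 28. A site 43.6 kb from the TSS of Cfd, the adipsin gene, had 19, 39, 22 and 38, and it also lay within 50 kb of Elane of the blood list. These are sites that passed 2-fold in both genotypes, so their direction follows from that choice.

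The 5 lower sites of the fibroblast list, a list made of matrix and mesenchymal genes, are given by gene. The intronic site 3.95 kb before Sparc, a matrix glycoprotein gene, had 66, 16, 66 and 19 and held an AP-1 match. The site 22.8 kb before Fbn1, the fibrillin-1 gene, had 43, 9, 44 and 10. The sites near the collagen genes Col1a1 and Col1a2 had 37, 12, 46 and 14, and 41, 13, 44 and 9. The site 47.9 kb before Prrx1, a mesenchymal homeobox gene, had 37, 12, 37 and 9.

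Of 19 annotated adipogenic transcription factor genes, 12 had a site, with 5 of 41 sites higher and 3 lower. Klf15, a zinc-finger activator of adipocyte genes, and Ebf1, an early B cell factor gene used in adipocytes, had 2 higher sites each. One of the Ebf1 sites, in an intron, had 6, 21, 9 and 20. An intronic site near the TSS of Srebf1, the gene of a regulator of lipid synthesis, had 11, 29, 18 and 38. All 3 lower sites were near Rxra, the partner of PPARG. The intronic one had 48, 16, 61 and 15, and the others had 28, 8, 37 and 12, and 51, 16, 66 and 22. The share of lower sites, 7.32%, was under the 11.5% near all coding genes, and all of them belong to 1 gene. By fold over the local background 1 of the 41 sites was lower.

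Thermogenic genes had a site for 15 of 20, with 4 of 36 sites higher and 1 lower and medians of −0.02 and 0.07. The higher ones were near Ppargc1a, Ppargc1b, Cidea and Prdm16. An intronic site near Prdm16, a determinant of beige and brown fat fate, had 15, 31, 19 and 34. An intronic site 31.3 kb before the Cidea TSS, a lipid droplet protein gene, had 18, 41, 13 and 42. The lower one was near Tmem26, a beige adipocyte surface marker gene, with 26, 6, 29 and 10. By fold over the local background 0 of the 36 sites were lower. Of the 9 amplicons that the study assayed and that were placed here, 8 at enhancers and 1 at a control region of Prdx5, 2 fell on distal sites, both upstream of a PGC-1 coactivator gene of mitochondrial biogenesis. The Pgc1b −48 kb site had 11, 28, 12 and 29, and was 3.16-fold (1.52 to 7.03) and 3.46-fold (1.71 to 7.45) higher at D8 in WT and HY. The Pgc1a −42 kb site (chr5:51986826-51987455), named for its amplicon and 28.1 kb before the nearest Ppargc1a TSS of the annotation used here, had 13, 27, 26 and 38, and was 2.58-fold (1.29 to 5.44) and 2.09-fold (1.24 to 3.59) higher. Over the local background the D8 to D0 ratios were 1.33 and 1.49 at Pgc1b and 1.44 and 0.895 at Pgc1a. The direction at Pgc1a thus turned in HY on this scale, which is not corrected for depth. At both, the interval of the scaled HY to WT ratio on each day included 1, with ratios of 1.02 (0.410 to 2.54) and 1.11 (0.639 to 1.94) at Pgc1b on D0 and D8 and 1.86 (0.923 to 3.95) and 1.51 (0.899 to 2.57) at Pgc1a.

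Of 18 annotated genes of the AP-1, TEAD and CTCF factors and their partners, 17 had a site. Of their 48 sites 2 (4.17%) were higher and 4 (8.33%) lower, against 4.18% and 11.5% near all coding genes. The higher ones were near Batf3 and Tead3, and the lower ones near Fos, Fosb, Tead1 and Smc3. By fold over the local background 1 of the 48 sites was lower. The site 23.0 kb after the TSS of Fos had 65, 16, 57 and 14, and the intronic Tead1 site, which held an AP-1 match, had 32, 7, 36 and 9. Hepatocyte genes had a site for 9 of 20, neuron genes for 6 of 18 and blood genes for 11 of 17 annotated members. Their sites numbered 18, 17 and 21, of which 0, 1 and 1 were higher and 3, 2 and 2 lower.

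Sites were unevenly spread over genes. In all, 6405 protein-coding genes were the nearest to at least 1 site, and 47 to 10 or more. Myc, the growth regulator in a gene desert, led with 19 sites up to 711 kb away, followed by Lpp, Zfp36l1 and Zmiz1 with 16 each and Gadd45g with 14, a number shared with Pde4d, Thbs1 and Zfp608. Of the Lpp sites 12, and of the Zmiz1 sites 10, lay in introns of the gene itself. The change at these sites was mixed. For Myc, 1 site was higher, 1 lower and 4 steady in both genotypes, and the log2 change ran from −1.82 to 1.84 in WT and from −1.16 to 2.17 in HY. For Lpp, 3 were higher and 3 lower.

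The genotypes differed far less than the days. Scaled pileups of WT and HY had a Spearman correlation of 0.89 at D0 and 0.84 at D8, against 0.38 between the days in WT and 0.43 in HY. The median log2 ratio of HY to WT was 0.05 at D0 and 0.16 at D8, close to that of promoters open in all 4 libraries, 0.09 and 0.16. At D0, 148 sites (1.17%) were at least 2-fold higher and 141 (1.11%) lower in HY, against 2.23% and 1.40% of all merged regions with both peaks. At D8, 303 (2.39%) were higher and 69 (0.544%) lower, against 1.68% and 0.510%.

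On both days together, 10 sites were at least 2-fold higher in HY and 5 lower, or 0.0788% and 0.0394% of the sites, against 0.0419% and 0.0335% of all regions with 4 peaks. After centring on promoters the counts were 5 and 10, so that their order turned, and by fold over the local background they were 1 and 0. The HY to WT ratio at D0 and that at D8, which share no library, had a Spearman correlation of 0.07 across sites.

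The 5 largest ratios among sites with enough tags were all towards HY. An intergenic site 142 kb before Serp2 had 10 and 15 in WT (D0 and D8) and 37 and 31 in HY, and HY was 3.45-fold (1.68 to 7.77) higher at D0 and 2.22-fold (1.16 to 4.43) at D8. A site in an exon outside coding sequence in Usp37, 14.6 kb after the Vil1 TSS, had 15, 14, 37 and 32, and HY was 2.30-fold (1.23 to 4.50) and 2.46-fold (1.27 to 4.98) higher. Sites in introns of Cbara1, Mbnl2 and Cog6 had 12, 10, 33 and 21, then 11, 9, 27 and 21, then 12, 10, 28 and 23. In each case both HY values were above both WT values. By fold over the local background none of the 5 passed 2-fold on both days, with ratios of 1.31 to 2.09. These sites were picked for the ratio out of 12694, and no replicate library was available to check them.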

How the data were processed

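ATAC-seq peaks of 4 libraries were analysed. According to the study and the labels, reads were aligned to mm9 with Bowtie2 and processed with SAMtools, Picard and deepTools, and peaks were called per library with MACS3. Further tool versions, the peak threshold and any shift for Tn5 are not given in the sources used here. Each deposited peak carries a fold over the local background (a ratio with a pseudocount of 1), a −log10 p-value and a −log10 q-value, a score (not used for results) and a summit offset, all made by the authors.

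From the deposited fold and −log10 p-value, the whole-number summit pileup and the local background rate were solved for each peak (all within 0.002 of the deposited −log10 p) and the pileup was divided by the lowest background rate of its library. Peaks were merged with bedtools 2.31.1, annotation was GENCODE M1, and sequence was NCBIM37. A TSS window reached 1000 bp before and 100 bp after the TSS. The solver was tested on simulated data. Shares have 95% Clopper-Pearson intervals, differences of shares Newcombe intervals, and pileup ratios exact conditional binomial intervals; all cover counting error only, and sequenced tags without molecular identifiers are not independent molecules. numpy 2.4.6, pandas 2.3.3, scipy 1.17.1 and matplotlib 3.10.9 were used. No test between conditions was made with 1 library per group: an additive model of genotype and day would leave 1 residual degree of freedom and take the lines as replicates.

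The members, motifs and gene lists were chosen with earlier results of these data known. Named sites were the 5 with the highest lowest-of-4 scaled pileup; the 5 such with a CTCF match within 50 bp; the 10 largest rises and 10 largest falls at D8 by the smaller change of both genotypes, with a pileup of at least 20 in the higher library of each genotype; the 5 largest HY to WT ratios by the smaller of both days, with the same minimum; the 5 genes nearest to most sites; genes of the 8 lists; regions that the study assayed, placed by their primers with 500 bp on each side; and the tallest site for each of 4 motifs. The reference did not mark repeats, so no repeat filter was applied.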

Additional observations from a re-analysis of the deposited data

Results flagged for a closer look

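Chromosome X was left out of all comparisons above, and 187 of its 2132 merged regions were distal and had a peak in every library, or 8.77%, against 12.9% on chromosomes 1 to 19. Of the 12694 distal sites, 2 passed 2-fold in opposite directions in the genotypes. The site nearest Gstm5 had pileups of 27, 10, 10 and 15 in WT D0, WT D8, HY D0 and HY D8, a log2 change from D0 to D8 of −1.12 in WT and 1.10 in HY. The site nearest Tmem64 had 7, 14, 25 and 8, a log2 change of 1.31 in WT and −1.13 in HY. The difference between genotypes was not tested at either site.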

How the results depend on the processing

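No paired test was made: the labels give no replicate numbers, and pairing the days by line leaves 2 differences. The 12694 sites became 8294 at a −log10 q of at least 5. The intronic share, 47.3%, was 45.9% with lists of equal length, 46.0% at that q and 45.7% with a promoter window from 2000 bp before to 1000 bp after the TSS. The CTCF share, 5.86%, was 5.26% at that q, 6.60% with summits within 200 bp, 10.5% with the looser core, 6.34% in the height range added after seeing the data, and 0.977% within 50 bp of the summit, where the bands at 70 bp drop out. The AP-1 share, 21.8%, was 24.5% with equal lists, 22.9% with summits within 200 bp, 14.9% and 26.5% within 50 and 200 bp, and 28.0% with looser letters. By fold over the local background, 84 sites were higher and 478 lower at D8 in both genotypes, and 1 was higher and 0 lower in HY on both days. At 1.5-fold these 4 counts were 1249, 3484, 170 and 82. Centring on promoters gave 5 sites higher and 10 lower in HY, and summits within 200 bp gave 3 lower. The C/EBP difference, 0.54 points, was 1.07 (0.478 to 1.91) at 1.5-fold and 16.0 with looser letters. The AP-1 and CTCF differences between classes kept their sign and an interval without 0 in all 5 alternatives. Within 10 kb, 5 adipocyte, 6 thermogenic, 5 fibroblast, 9 factor, 5 hepatocyte and 5 blood genes had a site, and within 100 kb 14 hepatocyte genes, beside 18.4% and 64.8% of all coding genes. Except where stated by construction, the cause was not tested. Pileups of 13 to 26 at the median limit a single site's ratio.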
